A study of Homo sapiens with 24 samples.

Results

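The chromosomal passenger complex and the shugoshins were followed as 6 genes: INCENP, AURKB, BIRC5, CDCA8, SGO1 and SGO2. They are 6 of the 60366 rows of the deposited gene count table, and all 6 passed the filter on low counts, among 22883 genes tested. The set was built by function around INCENP, and it was chosen by measured values, since earlier results on the AM-9747 responses in these same libraries were known when it was proposed. Levels, fold changes and calls of the 6 genes are therefore given as a description, with no p-value. Tests are given for 54 other genes of the pathway. That list too was chosen with earlier results of these data known, so its tests are no independent support.

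The chromosomal passenger complex directs chromosome segregation by carrying the kinase Aurora B to the inner centromere and later to the spindle midzone. INCENP is the scaffold of the complex, AURKB encodes the kinase, and BIRC5 (survivin) and CDCA8 (borealin) bind INCENP and place the complex on chromatin. The shugoshins SGO1 and SGO2 sit at centromeres, where they bring the phosphatase PP2A that shields cohesin from removal and help to hold the complex there.

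Poly(A) RNA was sequenced from 3 long-established lines of human pancreatic cancer, named BXPC3, MIAPACA2 and PSN1. The submitters call them MTAP-deleted, while the genotype label reads WT. AM-9747 is described as a tool compound among MTA-cooperative inhibitors of PRMT5, an arginine methyltransferase. The 6 groups were BXPC3 with DMSO vehicle, BXPC3 with 100 nM AM-9747, MIAPACA2 with vehicle, MIAPACA2 with 150 nM AM-9747, PSN1 with vehicle and PSN1 with 100 nM AM-9747. Every group was taken at day 6, in medium with serum, and has 4 libraries, 24 in all. Only MIAPACA2 was given the higher dose, and the effects of line and dose cannot be told apart for it. The labels do not say that the 4 libraries of a group were separate cultures, so the spread and the p-values measure only how these libraries vary, which may be technical.

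Depth ran from 22.4 to 45.6 M (1e6) counts per library. Of the PSN1 vehicle libraries, replicates 2 to 4 stand apart. Genes of the mitochondrial genome held 33.5 to 43.8% of their counts, against 17.4% in replicate 1. The share was 6.60 to 8.98% in BXPC3 vehicle, 6.58 to 20.5% in MIAPACA2 vehicle and 7.98 to 31.1% in PSN1 with AM-9747. Genes with any counts numbered 19398, 16646 and 21467 in PSN1 vehicle replicates 2 to 4. Replicate 1 had 24738, treated PSN1 22386 to 27120, BXPC3 vehicle 22560 to 25149 and MIAPACA2 vehicle 21183 to 23640. The part of these differences in the PSN1 results was not tested. PSN1 also varied most between libraries, with a biological coefficient of variation of 55.1% when fitted alone, against 26.6% in BXPC3 and 32.1% in MIAPACA2. In the joint fit, which shares its estimate of the spread over the lines, it was 46.4%, above BXPC3 or MIAPACA2 alone. For that reason calls in PSN1 are given from the joint fit of all 6 groups and from a fit of PSN1 alone. Counts of calls in BXPC3 and MIAPACA2 are given both ways too. Among epithelial markers KRT8 and KRT18 were high in every line, whereas EPCAM stayed at or below 0.11 CPM (counts per 1e6 counts, TMM-scaled) in MIAPACA2 vehicle. Mean EPCAM was 115 CPM in BXPC3 vehicle and 9.06 in PSN1 vehicle. Mean KRT19 was 1727 CPM in BXPC3 vehicle, 23.7 in MIAPACA2 vehicle and 168 in PSN1 vehicle. Mean CDH1 was 581, 0.13 and 0.62 CPM in the vehicle groups of BXPC3, MIAPACA2 and PSN1. The 12 markers of fibroblasts, leukocytes and endothelium summed to 71.5 to 78.3 CPM in BXPC3 vehicle, 1666 to 2840 in MIAPACA2 vehicle, where COL1A2 made up nearly all, 87.7 to 109 in PSN1 vehicle and 99.9 to 153 in PSN1 with AM-9747. The leukocyte gene PTPRC stayed at or below 0.51 CPM in every library and CD3E was at 0 counts in MIAPACA2 and PSN1, whereas PSN1 vehicle held CD14 at 24.7 and PECAM1 at 36.0 CPM and BXPC3 vehicle CD68 at 31.9 CPM (means). In PSN1 3 of the 11 tested, the fibroblast genes COL1A1, DCN and LUM, were called higher with AM-9747 in the joint fit and none with PSN1 alone, where 8 were tested and PECAM1 was called lower; their part in the results was not tested.

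Upstream sequences are shown first. Just before a RefSeq start, 3 of the 6 genes carry a short motif known from promoters of genes peaking in G2 and M phase. Such promoters often pair a cell cycle homology region, TTTGAA or TTTAAA, with CCAAT boxes. Of the 6 genes, 5 had an entry in the RefSeq promoter table (GRCh38.p14), and BIRC5 had none. The search covered both strands of windows from 250 bases before to 50 bases after each annotated start, and the 130 bases just before the start are printed 5′ to 3′ on the strand of the gene, with each match in capitals. A CCAAT on the opposite strand reads ATTGG. The INCENP stretch is chr11:62123881-62124010 on the plus strand and the CDCA8 stretch chr1:37692386-37692515 on the plus strand. The SGO2 stretch is chr2:200526077-200526206 on the plus strand (the downstream of its 2 starts). The AURKB stretch, with neither TTTGAA nor TTTAAA, is chr17:8210250-8210379 on the minus strand (the upstream of its 2 starts).
INCENP: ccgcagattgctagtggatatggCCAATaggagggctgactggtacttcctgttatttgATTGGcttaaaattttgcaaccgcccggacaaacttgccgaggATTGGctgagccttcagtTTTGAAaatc
CDCA8: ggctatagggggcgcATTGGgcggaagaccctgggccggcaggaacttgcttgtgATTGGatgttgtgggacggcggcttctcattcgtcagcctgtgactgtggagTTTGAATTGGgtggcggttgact
SGO2: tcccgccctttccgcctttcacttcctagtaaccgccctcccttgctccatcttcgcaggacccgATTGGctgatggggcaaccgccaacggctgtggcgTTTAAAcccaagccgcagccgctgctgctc
AURKB: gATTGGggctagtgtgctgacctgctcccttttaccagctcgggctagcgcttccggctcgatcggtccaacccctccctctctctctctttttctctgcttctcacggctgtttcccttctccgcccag
Counted from the start to the first base of each match, INCENP had TTTGAA at -10 and CCAAT matches at -107, -71 and -28. CDCA8 had TTTGAA at -23 and CCAAT matches at -115, -75 and -18, the last overlapping the TTTGAA. SGO2 had TTTAAA at -30 and CCAAT at -65 from its downstream start. From its upstream start the same matches were not before the start, at 36 and 1, with the start base counted as 1. AURKB and SGO1 held CCAAT, at -129 and -28, and neither TTTGAA nor TTTAAA in these windows. Both AURKB windows lie wholly inside its gene span, 8204733 to 8210600. Bases before the 5′ end of that span were not searched, so no contrast between the genes is drawn. Such words are common: of 35116 promoters of the same length, 15.2% held TTTGAA, 12.2% TTTAAA, 34.6% CCAAT, and 9.27% CCAAT together with either of the others. A match describes letters in the window and is not evidence of binding.

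In PSN1 all 6 genes were higher with AM-9747, and INCENP moved furthest. INCENP (ENSG00000149503, chromosome 11, 62123973 to 62153163 on the plus strand, GRCh38) stood at 14.3, 16.3, 14.4 and 14.8 CPM in vehicle replicates 1 to 4 and at 171, 177, 250 and 181 CPM with AM-9747. The lowest treated library lay far above the highest vehicle library, and the vehicle libraries were nearly level, at 15.0 ± 0.93 CPM (SD, n = 4) against 194.7 ± 37.4 (SD, n = 4). The fitted difference was 3.70 ± 0.30 on the log2 scale (SE), a 13.0-fold higher level, and 3.66 ± 0.23 with PSN1 fitted alone. By size of log2 fold change INCENP ranked 879 among the 22883 genes in PSN1, counted from the largest rise. In bulk RNA, fewer cells that express a gene and less RNA of it per cell cannot be told apart.

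The 3 partners of INCENP had smaller fold changes in PSN1. BIRC5 (ENSG00000089685, chromosome 17, 78214186 to 78225636, plus strand) read 14.5, 6.31, 3.75 and 10.0 CPM in PSN1 vehicle and 65.3, 40.3, 35.3 and 35.6 CPM with AM-9747, a log2 difference of 2.34 ± 0.31 (SE). CDCA8 (ENSG00000134690, chromosome 1, 37692418 to 37709719, plus strand) read 13.6, 9.46, 5.62 and 18.8 CPM in vehicle and 56.2, 40.3, 30.6 and 29.3 with AM-9747, a log2 difference of 1.72 ± 0.27 (SE). For both, every treated library was above every vehicle library. AURKB (ENSG00000178999, chromosome 17, 8204733 to 8210600, minus strand), the catalytic subunit, read 15.0, 13.9, 24.5 and 15.2 CPM in vehicle and 20.2, 31.8, 55.7 and 42.9 with AM-9747. Its groups overlapped, because treated replicate 1 lay below vehicle replicate 3, and the log2 difference was 1.13 ± 0.27 (SE), the smallest of the 6. AURKC is a paralog of AURKB, and how the authors' counting treated reads that match both is not given in the sources used here.

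Of the shugoshins, SGO2 had the larger fold change in PSN1. SGO2 (ENSG00000163535, chromosome 2, 200510008 to 200583782, plus strand) had 165, 42, 0 and 49 counts in PSN1 vehicle replicates 1 to 4, or 4.66, 1.95, 0 and 1.72 CPM, and 29.4, 20.9, 12.7 and 18.2 CPM with AM-9747. The groups did not overlap, and the log2 difference was 3.24 ± 0.53 (SE). A library at 0 counts still allows up to 3 counts, for counting error only. SGO1 (ENSG00000129810, chromosome 3, 20160593 to 20186292, minus strand) read 6.16, 4.64, 3.18 and 3.40 CPM in vehicle and 12.9, 11.4, 6.92 and 9.83 with AM-9747, again without overlap, a log2 difference of 1.24 ± 0.24 (SE). The antisense gene SGO1-AS1 overlaps SGO1 and had 0 to 32 counts per library, and whether the counting used strand is not stated.

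**Figure D1:**
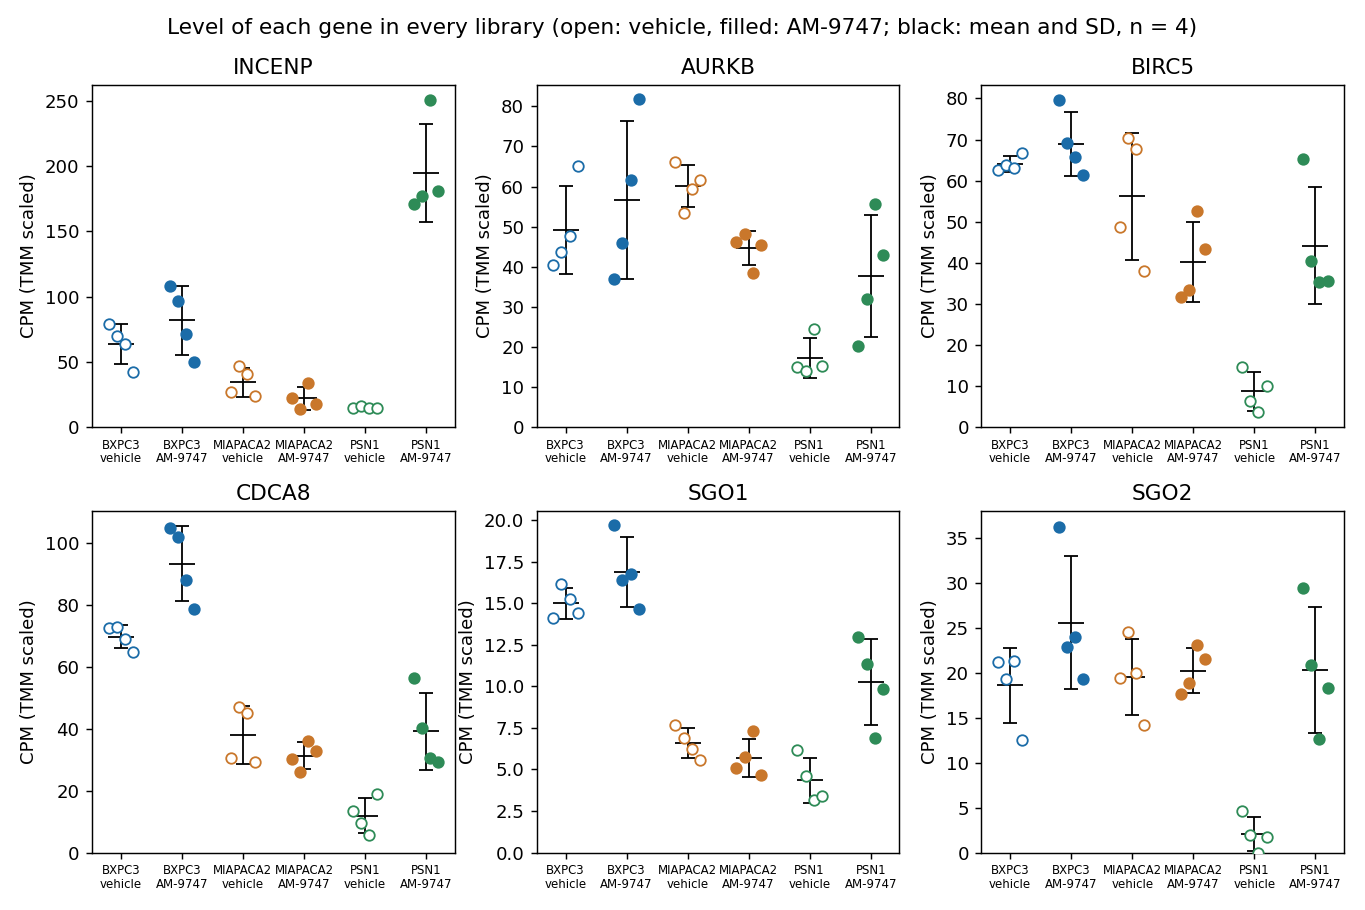
Level of each of the 6 genes in CPM (TMM-scaled, linear axis from 0) in every library, by line and treatment; open points are vehicle libraries, filled points AM-9747 libraries, and black bars the mean and SD of 4 libraries. In PSN1 the treated libraries of INCENP lie between 171 and 250 CPM, above all 4 vehicle libraries at 14.3 to 16.3 CPM, whereas those of AURKB overlap the vehicle libraries.

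By the joint fit (adjusted p under 0.05 by edgeR's quasi-likelihood test with Benjamini-Hochberg adjustment over all genes), 6 of 6 were called higher in PSN1, where 14.6% of all genes tested were called higher and 10.6% lower. With PSN1 fitted alone 4 of 6 were called higher (INCENP, BIRC5, CDCA8 and SGO2), with 4.52% of genes called higher and 6.17% lower. Every treated library lay above every vehicle library for 5 of the 6, against 10.4% of all genes. Since the same contrast was known when the set was proposed, nothing is read from these counts. Leaving out any 1 of the 24 libraries kept 6 of 6 called in the joint fit, PSN1 vehicle replicate 3, with no SGO2 counts, included. With the mitochondrial share, which ran lower in treated than in vehicle PSN1 libraries with overlap, as a covariate, the log2 differences in PSN1 were 3.51 for INCENP, 2.69 for SGO2, 1.78 for BIRC5, 1.48 for AURKB, 1.20 for CDCA8 and 0.91 for SGO1, all still called. Against vehicle replicate 1 alone, the only PSN1 vehicle library with a mitochondrial share inside the range of the treated ones, all 4 treated libraries were higher for each of the 6 genes, a comparison with no replicate check. The median of the 6 was 2.03, against 0.10 over all genes tested.

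In BXPC3 the fitted differences of the 6 genes were small, and none was called in the joint fit. CDCA8 read 72.4, 72.7, 68.8 and 64.8 CPM in vehicle and 105, 102, 87.9 and 78.7 with AM-9747, the only gene of the 6 whose groups did not overlap there, with a log2 difference of 0.42 ± 0.26 (SE). INCENP read 79.3, 69.5, 63.6 and 42.3 CPM in vehicle and 108, 96.9, 71.6 and 49.9 with AM-9747, a log2 difference of 0.36 ± 0.27 (SE) between groups that overlap widely. Each treated INCENP library lay above the vehicle library of the same replicate number, and whether the numbers pair the samples was not settled. SGO2 ran from 12.5 to 21.3 CPM in vehicle and from 19.3 to 36.2 with AM-9747, BIRC5 from 62.6 to 66.7 and from 61.4 to 79.5, SGO1 from 14.1 to 16.1 and from 14.7 to 19.7. AURKB ran from 40.4 to 65.1 CPM in vehicle and from 37.0 to 81.9 with AM-9747, so that treated libraries lay both below and above all vehicle libraries. The log2 differences were 0.46 ± 0.48 for SGO2, 0.20 ± 0.26 for AURKB, 0.17 ± 0.23 for SGO1 and 0.11 ± 0.29 for BIRC5 (SE). In BXPC3, 0 of the 6 were called in the joint edgeR fit, 0 by DESeq2 and 0 at an unadjusted p under 0.05, where 4.46% of all genes were called higher and 6.09% lower. CDCA8 alone was called with BXPC3 fitted by itself (0.42 ± 0.12, SE), where 13.2% of genes were called higher and 16% lower. Groups with all treated libraries above all vehicle libraries occurred for 12.9% of all genes in BXPC3.

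In MIAPACA2, 5 of the 6 fitted values were below 0. INCENP read 26.4, 46.4, 40.6 and 23.7 CPM in vehicle and 22.0, 13.9, 33.8 and 17.6 with AM-9747, a log2 difference of -0.65 ± 0.27 (SE), and the groups overlapped. AURKB read 66.1, 53.4, 59.4 and 61.6 CPM in vehicle and 46.3, 48.2, 38.5 and 45.4 with AM-9747, so that every treated library was below every vehicle library, as for 8.83% of all genes, with a log2 difference of -0.43 ± 0.26 (SE). BIRC5 ran from 37.99 to 70.3 CPM in vehicle and from 31.7 to 52.6 with AM-9747, and CDCA8 from 29.4 to 46.9 and from 25.9 to 36.1, with overlap. SGO1 and SGO2 also overlapped, at 5.59 to 7.68 and 14.2 to 24.5 CPM in vehicle and 4.69 to 7.29 and 17.6 to 23.0 with AM-9747. BIRC5 differed by -0.48 ± 0.29, CDCA8 by -0.28 ± 0.26, SGO1 by -0.21 ± 0.24 and SGO2 by 0.05 ± 0.48 on the log2 scale (SE). In MIAPACA2, 0 of the 6 were called, in the joint edgeR fit (2.71% of all genes higher, 2.32% lower) or with MIAPACA2 fitted alone (6.73% higher, 6.84% lower). DESeq2 also called 0, and by the unadjusted p of edgeR under 0.05, 1 of the 6 would count, INCENP. Without treated replicate 3 of MIAPACA2, INCENP was called lower, at -0.95.

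**Figure D2:**
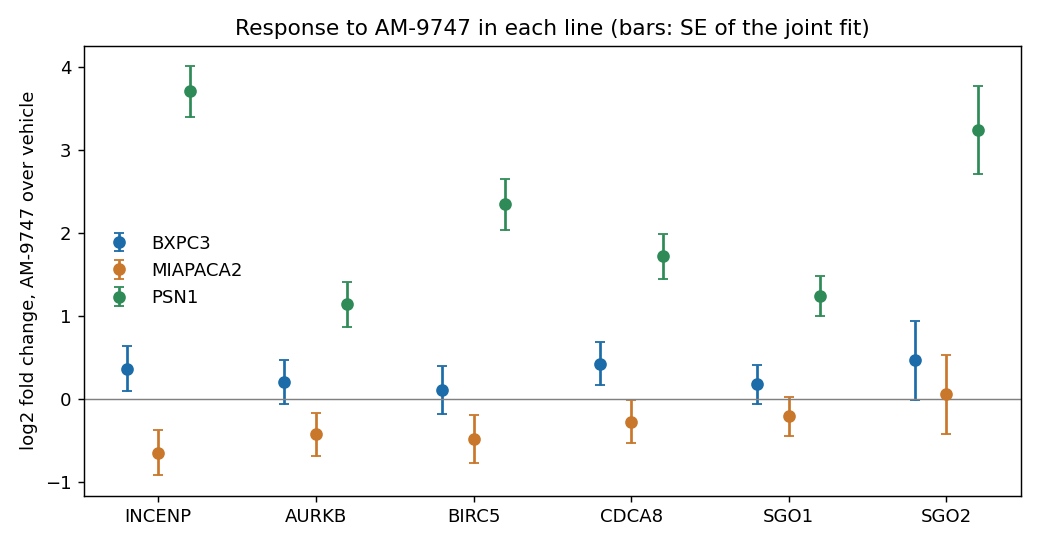
Log2 difference of AM-9747 against vehicle for the 6 genes in each line, with bars for the SE of the joint fit of 6 groups. The PSN1 values run from 1.13 to 3.70, the BXPC3 values from 0.11 to 0.46 and the MIAPACA2 values from -0.65 to 0.05.

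The response of PSN1 was set against those of the other lines, which use separate vehicle libraries but share the PSN1 libraries with each other. BXPC3 minus PSN1 was -3.34 for INCENP, -2.78 for SGO2, -2.23 for BIRC5, -1.30 for CDCA8, -1.06 for SGO1 and -0.93 for AURKB on the log2 scale, and all but AURKB were called, against 4.75% of all genes called lower. MIAPACA2 minus PSN1 ran from -4.35 for INCENP to -1.45 for SGO1, and 6 of 6 were called, against 5.64% of genes called lower. Between the BXPC3 and MIAPACA2 responses 0 of the 6 were called by edgeR, with 1 (INCENP, at 1.01) at an unadjusted p under 0.05, and 2.07% of all genes were called. An F test over the 3 lines called all 6, against 12.1% of genes. For the mean response of the 3 lines 5 were called higher (12.6% of all genes higher, 10.7% lower), and AURKB, at 0.30 ± 0.15 (SE), was not. For each of the 6 genes the PSN1 value was the largest of the 3 lines.

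Among the 6 groups, PSN1 vehicle had the lowest mean for each of the 6 genes. BXPC3 vehicle exceeded PSN1 vehicle by 1.52 (AURKB) to 3.11 (SGO2) on the log2 scale, and 6 of 6 were called higher, against 31.7% of all genes. MIAPACA2 vehicle exceeded it by 0.60 (SGO1) to 3.18 (SGO2), with 6 of 6 called and 27.3% of all genes called higher. These comparisons share the PSN1 vehicle libraries with the treatment comparison in PSN1, so a low level in them enters all 3. Between BXPC3 and MIAPACA2 vehicle, INCENP (0.89), CDCA8 (0.88) and SGO1 (1.18) were called higher in BXPC3, against 26.3% of all genes.

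The order of the levels differed by gene. For INCENP the order of means was PSN1 with AM-9747, BXPC3 with AM-9747, BXPC3 vehicle, MIAPACA2 vehicle, MIAPACA2 with AM-9747 and PSN1 vehicle, and only the first step, from 194.7 to 81.7 CPM, separated neighbouring groups without overlap of libraries. For BIRC5, CDCA8 and SGO2 the mean of treated PSN1 lay among those of the other lines, at 44.1 ± 14.3, 39.1 ± 12.4 and 20.3 ± 6.97 CPM (SD, n = 4), whereas PSN1 vehicle lay below every other group without overlap, at 8.65 ± 4.69, 11.9 ± 5.64 and 2.08 ± 1.93 CPM. For AURKB no neighbouring groups were separated. Treated PSN1, at 37.6 ± 15.2 CPM, came next to last for that gene. CDCA8 was highest in BXPC3 with AM-9747, at 93.2 ± 12.1 CPM, and its BXPC3 vehicle group, at 69.7 ± 3.71, was separated from the groups on both sides. BIRC5 in BXPC3 was at 64.0 ± 1.85 CPM in vehicle and 68.9 ± 7.73 with AM-9747, the top 2 groups for that gene. SGO1 was highest in BXPC3, at 16.9 ± 2.10 CPM with AM-9747 and 15.0 ± 0.91 in vehicle, and no library of another line reached those of BXPC3.

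Compared per kilobase of exon, AURKB or CDCA8 was highest of the 6 in each vehicle group. In BXPC3 vehicle CDCA8 was at 28.2 CPM per kb, AURKB 21.9, BIRC5 16.8 and INCENP 14.2, with SGO1 at 3.91 and SGO2 at 3.08. In MIAPACA2 vehicle AURKB led at 26.8 CPM per kb and INCENP stood at 7.66. In PSN1 vehicle AURKB was at 7.66 CPM per kb, CDCA8 4.80, INCENP 3.35, BIRC5 2.27, SGO1 1.13 and SGO2 0.346. With AM-9747 PSN1 was the only group led by INCENP, at 43.5 CPM per kb against 16.8 for AURKB, 15.8 for CDCA8 and 11.6 for BIRC5.

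The balance of scaffold to partners was described as log2 CPM of INCENP minus the mean log2 CPM of AURKB, BIRC5 and CDCA8. In PSN1 vehicle it ran from 0.00 to 0.83 across libraries and with AM-9747 from 2.02 to 2.68, so the groups did not overlap, with means of 0.42 ± 0.45 and 2.32 ± 0.27 (SD, n = 4). In BXPC3 it was 0.05 ± 0.48 in vehicle and 0.16 ± 0.56 with AM-9747, and in MIAPACA2 -0.59 ± 0.26 and -0.87 ± 0.47 (SD, n = 4), with overlapping groups in both lines. Among the treated BXPC3 libraries the balance was lower where the mitochondrial share was higher: libraries with 4.34, 6.16, 8.66 and 10.2% had 0.68, 0.50, 0.01 and -0.56. AURKB itself went the other way in those 4 libraries, at 37.0, 45.8, 61.7 and 81.9 CPM. BXPC3 vehicle libraries with 6.60, 6.70, 6.78 and 8.98% had a balance of 0.48, 0.11, 0.24 and -0.63. MIAPACA2 vehicle libraries with 6.58, 10.3, 17.0 and 20.5% had -0.27, -0.48, -0.80 and -0.79. Treated MIAPACA2 libraries with 7.23, 14.7, 15.7 and 16.6% had -0.30, -1.19, -0.69 and -1.31. PSN1 did not show a fall with the share. Its treated libraries with 7.98, 14.1, 26.8 and 31.1% had 2.02, 2.24, 2.68 and 2.35. Its vehicle libraries with 17.4, 33.5, 37.6 and 43.8% had 0.00, 0.07, 0.83 and 0.79. The part of the mitochondrial share in these values was not tested. In PSN1 vehicle INCENP itself was level across shares of 17.4 to 43.8%.

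**Figure D3:**
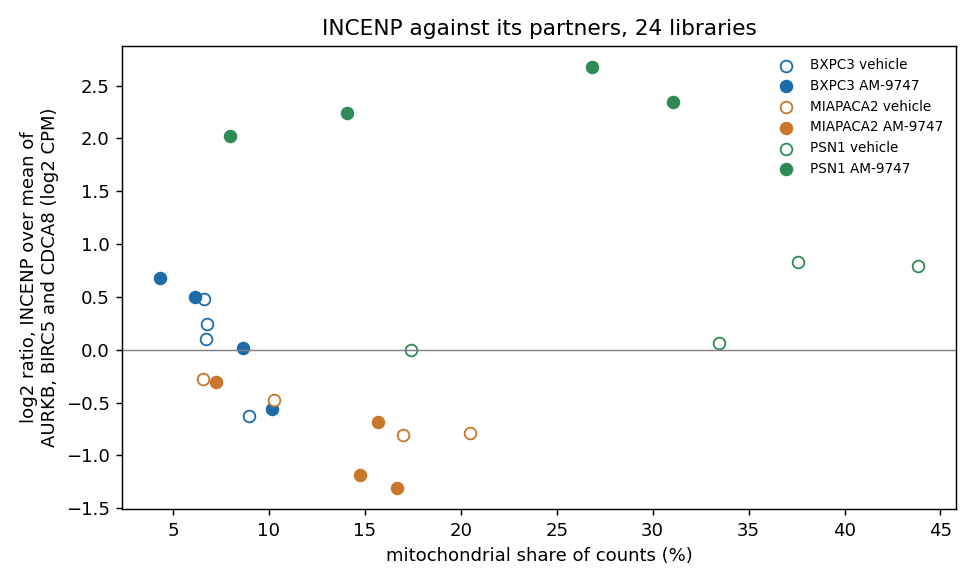
Log2 CPM of INCENP minus the mean log2 CPM of AURKB, BIRC5 and CDCA8 (vertical axis) against the mitochondrial share of counts in percent (horizontal axis); each point is 1 of 24 libraries, open for vehicle and filled for AM-9747. Treated PSN1 libraries lie between 2.02 and 2.68, above the 20 other libraries, whose highest value is 0.83.

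Within groups, AURKB ran against the other 5 genes. Over 24 libraries, with each level taken as its deviation from the group mean divided by the group SD, Pearson's r of AURKB was -0.89 with CDCA8, -0.85 with SGO2, -0.58 with INCENP, and -0.54 with BIRC5 and SGO1. CDCA8 and SGO2 went together (r = 0.80), as did SGO1 and SGO2 (0.69), and INCENP went with CDCA8 (0.54) more than with BIRC5 (0.15). These values share library depth and composition and are a description. The protein-coding genes closest to INCENP by the same measure, among 10858 compared, were CLEC16A (0.96), AMBRA1 (0.92) and CCDC88C (0.92). Those closest to AURKB were FLOT1 (0.98), DCXR (0.96) and MCRIP2 (0.96), those closest to BIRC5 MFGE8, GPN1 and SENP3 (0.94 each), those closest to CDCA8 RNF6 (0.97), FAM83D (0.96) and POLR3A (0.95), those closest to SGO1 PID1 (0.86), WDR12 (0.82) and PLPP3 (0.82), and those closest to SGO2 ASAH1 (0.97), WWP1 (0.97) and PBK (0.96). Without division by the group SD, 0 of the 3 were shared for each of the 6 genes.

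The other genes of the pathway were tested as 54 genes in 8 groups of function, a list also chosen with earlier results of these data known. In PSN1 42 rose and 1 fell in the joint fit (77.8% and 1.85%, against 14.6% and 10.6% of all genes). With PSN1 fitted alone by edgeR, 27 rose and 0 fell (50% and 0%, against 4.52% and 6.17%). At an unadjusted p under 0.05 in that fit, 40 were higher and 1 lower. DESeq2 on all groups gave 43 and 1. The median log2 difference of the 54 was 1.36, against 0.10 over all genes, and 51 of the 54 were above 0. All 8 genes that place the complex rose (5 alone), among them the mitotic kinase TTK by 2.46 ± 0.31 (SE; edgeR's quasi-likelihood test with Benjamini-Hochberg adjustment, adjusted p = 5.64e-06, and 0.00729 alone). HASPIN and BUB1, kinases that write histone marks by which the complex is placed, were named after their values were seen. HASPIN was at 2.59 (edgeR adjusted p = 0.0028, and 0.121 alone) and BUB1 at 2.34 (1.67e-06, and 0.00273 alone). HASPIN was low in PSN1, at a mean of 0.458 CPM in vehicle (0 to 34 counts) and 2.91 with AM-9747.

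Of the kinetochore and checkpoint genes 8 of 11 rose and 1 fell in PSN1 (7 rose alone). Over all genes in PSN1, 14.6% rose and 10.6% fell jointly, and 4.52% and 6.17% alone. The centromeric histone CENPA rose by 3.29 ± 0.56 (edgeR adjusted p = 1.88e-04, and 0.0407 alone) and the checkpoint gene MAD2L1 by 2.57 ± 0.35 (1.63e-05, and 0.0124 alone). CENPA was low in PSN1 vehicle, at a mean of 1.51 CPM (0 to 150 counts). MIS12, a kinetochore subunit, fell by 0.74 in the joint fit (edgeR adjusted p = 0.00711), a call lost alone (0.0759). All 6 midzone and cytokinesis genes rose (4 alone), as did 4 of 6 cohesin protection and release genes (4 alone) and 4 of 6 G2/M transcription genes (3 alone). PP2A subunits rose in 6 of 9 jointly and in 0 of 9 with PSN1 fitted alone by edgeR, where 3 were higher at an unadjusted p under 0.05; DESeq2 on all groups called 6. Of the opposing PP1 genes 2 of 4 rose (1 alone), among them CDCA2, which targets PP1 to chromatin, by 2.69 ± 0.47 (edgeR adjusted p = 2.23e-04, and 0.0468 alone). CDCA2 was low in PSN1 vehicle, at a mean of 1.62 CPM (1 to 126 counts). All 4 other Aurora genes rose (3 alone).

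Proliferation markers moved with the 6 genes in PSN1. MKI67 went from 21.3 ± 4.60 to 136.8 ± 13.0 CPM (SD, n = 4), a log2 difference of 2.68 ± 0.26 (edgeR adjusted p = 1.45e-07, and 3.06e-04 alone). All 5 proliferation markers tested rose in PSN1 (4 alone), against 14.6% of all genes jointly and 4.52% alone. TOP2A was at 1.42 (edgeR adjusted p = 0.00203) and PCNA at 1.57 (7.87e-04). The part of cell cycle position in the values of the 6 genes was not tested. In BXPC3 0 of the 5 rose and 1 fell (2 fell alone), with a median of -0.38, and in MIAPACA2 0 rose and 1 fell (3 fell alone), with a median of -0.83. Of all genes, 6.09% fell in BXPC3 and 2.32% in MIAPACA2 in the joint fit (16% and 6.84% alone). The joint calls were MCM6, a helicase subunit of DNA replication, in BXPC3 (-0.97, edgeR adjusted p = 0.0478) and MCM2, another, in MIAPACA2 (-0.97, 0.0447); MKI67 did not pass in BXPC3 (0.585) or MIAPACA2 (0.462).

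In BXPC3, 6 of the 54 rose (11.1%, against 4.46% of all genes) and 2 fell (3.70%, against 6.09%). With the line fitted alone 20 rose and 4 fell (37.0% and 7.41%, against 13.2% and 16%). The median in the joint fit was 0.30 against 0.03 over all genes. The mitotic kinase TTK rose by 1.04 ± 0.29 (edgeR adjusted p = 0.0215), the kinetochore gene NUF2 by 0.95 ± 0.20 (0.00297), AURKA, which encodes Aurora A, by 0.85 ± 0.17 (0.00142) and its activator BORA by 0.84 ± 0.21 (0.0109). DSN1, a kinetochore gene, fell by 0.67 (edgeR adjusted p = 0.0427) and E2F1, a transcription factor of the cell cycle, by 0.65 (0.0110). In MIAPACA2 1 of the 54 rose (1.85%, against 2.71% of all genes) and 4 fell (7.41%, against 2.32%). With the line fitted alone the shares were 5.56% and 11.1%, against 6.73% and 6.84%. In both fits the share that rose was no higher than over all genes. The balance depended on scaling: with no scaling beyond library totals 3 rose and 1 fell. The median was -0.20 against 0.00. BORA rose by 0.81 ± 0.21 (edgeR adjusted p = 0.0264), and E2F1 fell by 0.81 (0.00440), MYBL2, a transcription factor of G2/M genes, by 0.81 (0.0233), KIF20A, the kinesin that carries the complex to the midzone, by 0.72 (0.0138) and PPP2R1A, a PP2A scaffold, by 0.58 (0.0346). For the mean response 27 rose and 2 fell (50% and 3.70%, against 12.6% and 10.7% of all genes). The largest rises at a mean of at least 5 CPM were in CENPA (1.38, edgeR adjusted p = 0.00141), TTK (1.29, 4.48e-06), NUF2 (1.10, 2.90e-07) and AURKA (1.08, 2.73e-08). SPC24, a kinetochore gene, fell by 0.66 (edgeR adjusted p = 0.0417) and PPP2R1A by 0.33 (0.0103).

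**Figure D4:**
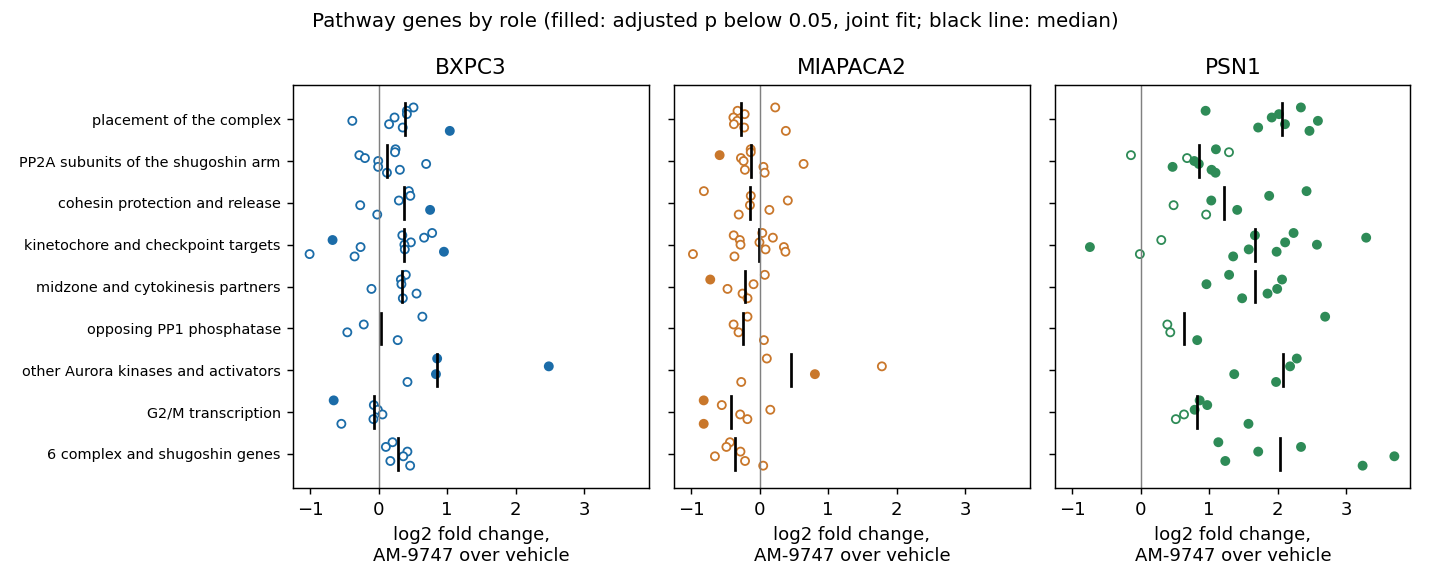
Log2 difference of AM-9747 against vehicle for the 54 pathway genes by functional group and line, beside the 6 genes of the complex and the shugoshins; filled points passed an adjusted p of 0.05 in the joint fit and black lines are medians. In PSN1 51 of the 54 lie above 0, in BXPC3 35 and in MIAPACA2 18.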

How the data were processed

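Per the labels, the 24 libraries were strand-specific and poly(A)-selected (NEBNext Ultra II Directional). The submitters' processing notes name fastp 0.19.8 for trimming, HISAT2 2.2.0 and GRCh38 for alignment, and R 4.0.2 and DESeq2 1.34.0. Which program counted reads, on which gene annotation, is not given in the sources used here. Values deposited by the authors are whole, unscaled counts for each gene, and 56271 of the 60366 rows matched GENCODE 29 by stable ID, which gave names, positions and exon lengths.

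The 6 groups were fitted jointly with edgeR 4.0.16 in R 4.3.3 with limma 3.58.1: TMM scaling, filterByExpr by group, quasi-likelihood test, 18 residual degrees of freedom, Benjamini-Hochberg adjustment over 22883 genes and a threshold of 0.05. Levels are TMM-scaled CPM computed from the counts, and log2 CPM used a prior count of 2. The 6 members and all lists were chosen with earlier results of these data known. Of the 54 pathway genes, the text names in each comparison up to 4 called rises and 4 called falls of largest size with a mean of at least 5 CPM; MKI67, TOP2A and PCNA are named as proliferation markers, and any further gene was singled out after its value was known. RRM2, listed as a proliferation marker, was not analysed here. Promoter sequences are from RefSeq (GRCh38.p14). The procedure was tested on simulated counts. Alternatives were DESeq2 1.42.0, other scalings and filters, each line fitted alone, a replicate block, the mitochondrial share as a covariate and each library left out in turn. Depth, at 22.4 to 45.6 M (1e6) counts, gives 22.4 counts or more at 1 CPM before scaling, and floors cover counting error only.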

Additional observations from a re-analysis of the deposited data

Results flagged for a closer look

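In 3 of 42 groups of 4 libraries tested, 1 library lay far from the other 3; chance marks about 1 group in 20. INCENP was highest in treated PSN1 replicate 3, at 250.5 CPM against 171 to 181 in the others. AURKB was highest in PSN1 vehicle replicate 3, at 24.5 CPM against 13.9 to 15.2. BIRC5 was highest in treated PSN1 replicate 1, at 65.3 CPM against 35.3 to 40.3. Vehicle replicate 3 of PSN1, high in AURKB, is the library with 0 counts of SGO2.

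Fitted responses to AM-9747 that edgeR's test of the difference between lines called are given here on the log2 scale, as a description, since the 6 genes were chosen with these responses known. AURKB was not called for BXPC3 minus PSN1, at -0.93. BXPC3 minus PSN1 was -3.34 for INCENP, -2.23 for BIRC5, -1.30 for CDCA8, -1.06 for SGO1 and -2.78 for SGO2. MIAPACA2 minus PSN1 was -4.35 for INCENP, -1.57 for AURKB, -2.82 for BIRC5, -1.99 for CDCA8, -1.45 for SGO1 and -3.18 for SGO2. Both sets use the same PSN1 libraries, and the dose in MIAPACA2 was different.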

How the results depend on the processing

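No called log2 difference of the 6 genes changed sign under any alternative. In PSN1, over 32 settings, INCENP, BIRC5, CDCA8 and SGO2 were called in 32, and AURKB and SGO1 in 31, lost only with PSN1 fitted alone. With each line fitted alone the called pathway genes numbered 24 in place of 8 for BXPC3 and 9 in place of 5 for MIAPACA2. For PSN1 they numbered 27 in place of 43. In BXPC3 1 member was called in place of 0. Such a fit takes in fewer libraries and genes, and only the spread of its own line. The biological coefficient of variation was 46.4% jointly, against 26.6% in BXPC3, 32.1% in MIAPACA2 and 55.1% in PSN1 alone. In MIAPACA2 the 5 pathway calls became 3 with no filter on low counts and 9 with the mitochondrial share as a covariate. With that covariate the PSN1 calls went from 43 (42 higher, 1 lower) to 35 (35 higher, 0 lower). The BXPC3 calls went from 8 to 11 and those of the mean from 29 to 28. The cause of these shifts was not tested. Leaving out 1 library at a time gave 5 to 11 pathway calls in BXPC3 (5 without vehicle replicate 1), 1 to 8 in MIAPACA2, 36 to 47 in PSN1 and 26 to 37 for the mean, and 0 to 0, 0 to 1, 6 to 6 and 4 to 5 member calls. In MIAPACA2 the pathway count was 3 without vehicle replicate 1 or 2, 2 without vehicle replicate 3, 1 without treated replicate 1, 2 without treated replicate 2 or 4, and 8 without treated replicate 3 or PSN1 vehicle replicate 3. Without scaling beyond library totals the median of all genes moved by 0.15 in MIAPACA2 and 0.29 in PSN1 on the log2 scale. The MIAPACA2 pathway calls were then 3 higher and 1 lower, in place of 1 higher and 4 lower. With median-of-ratio scaling they stayed at 1 higher and 4 lower. Whether the replicate numbers pair the samples was not settled. Of 12 same-numbered pairs, 8 correlated above 0.1 (-0.43 to 0.63), and 5 of 12 correlated best with their own number. BXPC3 replicates 1 and 4 had r of 0.50 and 0.62 and PSN1 replicate 1 had 0.63, whereas MIAPACA2 replicate 2 had -0.43. With a replicate block the pathway calls were 11, 5, 46 and 34 and the member calls 0, 0, 6 and 5 in BXPC3, MIAPACA2, PSN1 and the mean. Low counts limit SGO2 most, with 0 to 165 counts in PSN1 vehicle. Vehicle replicate 3 of PSN1, with 0, had the lowest depth (22.4 M counts) and the fewest genes detected (16646). The part of either was not tested.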

Other observations

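Of 25 genes tested in PSN1 within 500 kb of INCENP on chromosome 11, a window chosen after the data were seen, 2 were called higher in the joint fit (FEN1, a flap endonuclease of DNA replication, at 1.94 and MTA2, a subunit of a chromatin remodelling complex, at 0.74 on the log2 scale) and 3 lower (BEST1 at -1.75, EML3 at -0.88 and B3GAT3 at -0.57). Those are 8% higher and 12% lower, against 14.6% and 10.6% of all genes in PSN1. The median of the 25 was 0.19, with a range of -1.75 to 1.94, against 3.70 for INCENP.

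AURKC, the Aurora kinase best known from meiosis and a paralog of AURKB, was called higher in BXPC3, where AURKB was not. Its mean response over the 3 lines was 2.15 (edgeR adjusted p = 1.47e-05), larger than that of CENPA. In BXPC3 its mean level went from 0.379 CPM in vehicle to 2.13 CPM with AM-9747, a log2 difference of 2.48 ± 0.55 (SE; edgeR's quasi-likelihood test with Benjamini-Hochberg adjustment, adjusted p = 0.00385). In PSN1 the difference was 2.18 (edgeR adjusted p = 0.00414, and 0.0526 with PSN1 fitted alone). In MIAPACA2 its mean level went from 0.645 CPM in vehicle (0.412 to 0.756) to 2.23 with AM-9747 (1.16 to 2.89). It was not called there in the joint fit. Of the 4 other Aurora genes, which include AURKC, 2 were called higher with MIAPACA2 fitted alone, against 1 jointly. Of all genes 6.73% were called higher alone and 2.71% jointly. AURKC levels are low, with 10 to 18 counts in the BXPC3 vehicle libraries, and the gene was singled out after its values were seen.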
